A study of Homo sapiens with 15 samples.

Results

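The genes described here are 42 genes of G2 and mitosis, the last stages of the cell division cycle. They were chosen by name, and all 42 were found among the 58735 genes of the count table. All 42 were also among the 16146 genes with enough counts to be tested. By role they fell into genes of mitotic entry (9), the spindle assembly checkpoint (5), partners and substrates of the anaphase-promoting complex (3), the chromosomal passenger complex (4), the spindle and centrosome (7), the centromere and kinetochore (4), the central spindle and cytokinesis (8) and the mitotic chromosome (2).

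RNA was sequenced from UKE-1 cells, an established human leukaemia line that grew out of essential thrombocythaemia and carries an activating mutation of the kinase JAK2. Each of 5 groups had 3 libraries: cells left untreated, cells stimulated with the inflammatory cytokine TNF-α, and TNF-α stimulated cells that also received MCL, ruxolitinib or both. MCL is read here as micheliolide, a plant lactone that the series title names. Ruxolitinib inhibits JAK1 and JAK2. All libraries were labelled as taken 3 h after treatment, a time that is short beside a cell cycle. The labels used here state no doses and no length of stimulation, and do not say whether a group's libraries came from separate cultures. The p-values thus measure only the spread among libraries, and part of it may be technical.

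Cyclin B bound to the kinase CDK1 drives the entry into mitosis, and Polo-like and Aurora kinases prepare the centrosomes, spindle and chromosomes. The spindle assembly checkpoint holds the cell before anaphase until every kinetochore is attached, after which CDC20 activates the anaphase-promoting complex, a ubiquitin ligase that marks cyclin B and securin for destruction. Most of these transcripts are made late in the cycle under the MuvB complex with B-MYB and FOXM1, together with the CCAAT-binding factor NF-Y. In bulk RNA, fewer cells in G2 and mitosis and less RNA of these genes in each such cell cannot be told apart.

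Library totals ranged from 15476399 to 18035604 counts, and mitochondrial transcripts took 5.22% ± 0.115 of them in untreated cells, 5.12% ± 0.151 with TNF-α, 4.55% ± 0.217 once MCL was added, 5.49% ± 0.0474 once ruxolitinib was added and 4.30% ± 0.143 once both were (mean ± SD, n = 3). The share was thus lower in the groups with MCL than in those without, and its part in the results on MCL was not tested. The treatments were checked in genes known to answer them. The adhesion gene ICAM1, which answers NF-kB, went from 18.4 ± 1.03 CPM (counts scaled for library size, mean ± SD, n = 3) in untreated cells to 373 ± 15.4 with TNF-α. HMOX1, the haem oxygenase gene of the oxidative stress response, was at 0.482 ± 0.165 CPM with TNF-α and 63.7 ± 4.71 with MCL. Among the other check genes, CISH was at 22.9 ± 1.76 CPM with TNF-α and 13.8 ± 0.571 with ruxolitinib, and IFIT1 at 95.2 ± 2.84 and 12.5 ± 1.43. With MCL, CISH was at 19.0 ± 3.22 CPM and IFIT1 at 42.7 ± 1.92. All 12 markers of haematopoietic and myeloid or megakaryocyte-erythroid cells were tested, and their summed level lay between 3646 and 3668 CPM in untreated cells and between 2012 and 2072 CPM with both drugs. The 12 were at unlike levels: with TNF-α, CD34 was at 1251 ± 25.5 CPM and MPO at 0.956 ± 0.321, with as few as 3 counts in a library. Of 5 T cell and 4 B cell markers, the summed levels stayed between 12.8 and 24.8 CPM and between 25.5 and 33.7 CPM. Most of the B cell sum came from CD79A, at 25.0 ± 2.77 CPM with TNF-α. Of 5 epithelial markers, EPCAM, KRT19 and CDH1 had no count in any library, whereas the keratin genes KRT8 and KRT18 were at 50.1 ± 2.84 and 80.5 ± 2.63 CPM with TNF-α, and the summed level of the 5 lay between 100.7 and 158.5 CPM. The sum of 5 fibroblast markers did not pass 1.80 CPM. With TNF-α alone the sum of the haematopoietic markers lay between 3562 and 3585 CPM and with MCL between 2854 and 2901. Against TNF-α, 9 of the 12 were lower and 0 higher with MCL (median -0.35). Of all genes tested, 15.1% were lower and 10.9% higher there (median -0.02). With both drugs 10 of the 12 were lower and 0 higher (median -0.80), beside 29.3% and 25.5% of all (median -0.03). The part of these falls in the results with MCL and with both drugs was not tested.

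The share of all counts that fell on the 42 genes was 0.581% ± 0.00591 without treatment and 0.551% ± 0.00649 under TNF-α (mean ± SD, n = 3). It was 0.522% ± 0.00626 under added MCL, 0.582% ± 0.0162 under added ruxolitinib and 0.574% ± 0.00399 when both were added. Levels between genes are compared here only as CPM per kilobase of gene length, averaged over the 15 libraries. TOP2A, the topoisomerase that untangles sister chromatids, was highest at 81.9 CPM per kilobase. It was followed by TPX2, a spindle assembly factor that activates Aurora A, at 78.5, by CDC20 at 72.8, by UBE2C, the ubiquitin-conjugating enzyme of the anaphase-promoting complex, at 70.5 and by cyclin B1 (CCNB1) at 64.5. The lowest was PRC1, the microtubule bundler of the central spindle, at 0.63 CPM per kilobase, and the next lowest was CDC25C, a phosphatase that activates CDK1, at 4.21. PRC1 shares its span on the same strand with AC068831.7 and also overlaps PRC1-AS1, so that its level and its changes are uncertain. In all, 9 of the 42 overlap another tested gene: CCNA2, CDC25C, FOXM1, CENPA, KIF2C, PRC1, KIF20A, KIF4A and TOP2A. Use of strand in the counting is not given in the sources used here, and reads of such pairs may be shared or lost. CDC25C overlaps FAM53C on the opposite strand, which drew far more reads, 102.8 CPM beside 14.1 for CDC25C. Changes of CDC25C are thus uncertain as well.

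For cyclin B1 the libraries were at 170.2, 174 and 170.3 CPM without treatment and 155, 164 and 167 under TNF-α. Added MCL gave 159.7, 163 and 158, added ruxolitinib 171, 177 and 162 and both together 157, 163 and 167. The drug-treated groups overlapped TNF-α alone, and cyclin B1 passed the test in no comparison. Ruxolitinib replicate 2 stood apart in several genes. CENPE, the kinetochore motor that brings chromosomes to the spindle equator, was at 90.5, 65.4 and 94.0 CPM with ruxolitinib, and CENPF, another kinetochore protein, at 278, 233 and 284. ASPM, a protein of the spindle poles, was at 144, 117 and 147 CPM in the same libraries. KIF20B, a kinesin of cytokinesis, was at 85.3, 72.5 and 86.3 CPM. In these 4 genes the second library was the low one, whereas it was the high one for UBE2C, at 79.8, 96.5 and 84.0 CPM, and for NEK2, at 20.3, 24.4 and 19.8 CPM.

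**Figure D1:**
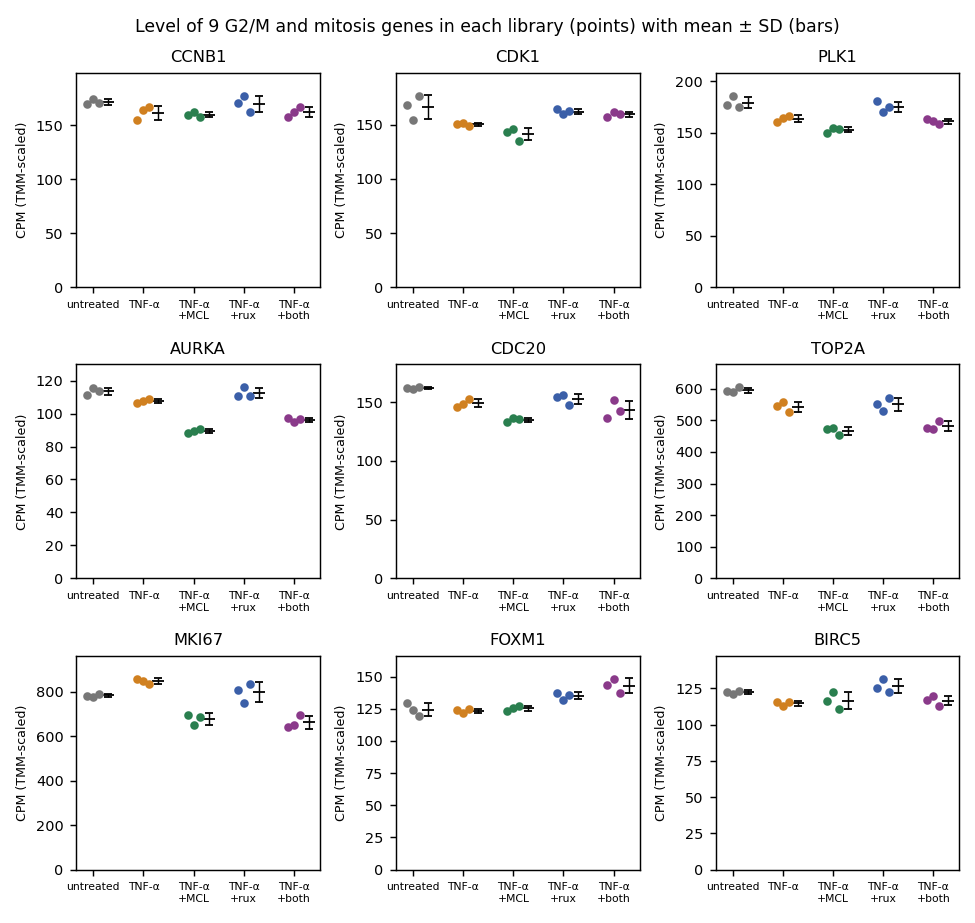
Level of 9 of the genes in each library, as TMM-scaled CPM on axes that start at 0, with 3 libraries per group as points and their mean ± SD as bars. The MCL libraries of AURKA, TOP2A and MKI67 lie below all TNF-α libraries, whereas those of CCNB1 overlap them.

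The sequence before the start of many of these genes holds the short motifs known for the late cell cycle programme. CHR, the cell cycle homology region bound by MuvB, was searched as TTTGAA and in its rarer form TTCGAA, and the NF-Y motif as CCAAT, in the 250 bases upstream of each start and on both strands. RefSeq promoter windows on GRCh38.p14 were matched for 35 of the 42 genes (45 windows). There was none for AURKA, BIRC5, BUB3, FOXM1, TPX2, TTK and UBE2C. TTTGAA was present in 22 of the 45 windows (48.9%), beside 13.3% of all 35116 windows, and CCAAT in 36 (80%), beside 32%. TTCGAA was in 1 window (2.22%), beside 1.19%. Both TTTGAA and CCAAT occurred in windows of 18 of the 35 genes, beside 6.86% of all gene symbols. The motifs are short, a match is a description and not a site, and no match says only that these letters are not in this window.

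Shown here are 120-base stretches of 4 genes that hold both motifs, picked from different comparisons that follow. MKI67, KIF11 and CDC20 fell with MCL, and KIF4A rose with both drugs. Each stretch is written 5′ to 3′ in the direction of the gene, on GRCh38.p14. Capitals mark TTTGAA and CCAAT or their reverse complements TTCAAA and ATTGG.
MKI67 promoter, chr10:128126424-128126543, minus strand: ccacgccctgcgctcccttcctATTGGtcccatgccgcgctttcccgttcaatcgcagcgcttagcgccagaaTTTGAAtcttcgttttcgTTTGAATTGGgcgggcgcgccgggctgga
KIF11 promoter, chr10:92593010-92593129, plus strand: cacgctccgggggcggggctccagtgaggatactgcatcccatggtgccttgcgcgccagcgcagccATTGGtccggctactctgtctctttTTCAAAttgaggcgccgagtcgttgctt
CDC20 promoter, chr1:43358861-43358980, plus strand: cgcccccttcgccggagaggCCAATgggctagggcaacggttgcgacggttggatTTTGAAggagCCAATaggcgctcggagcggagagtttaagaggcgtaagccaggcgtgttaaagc
KIF4A promoter, chrX:70289984-70290103, plus strand: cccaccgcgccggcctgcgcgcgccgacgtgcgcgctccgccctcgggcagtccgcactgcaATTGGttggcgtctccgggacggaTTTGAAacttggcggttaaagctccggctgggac
Of the 120 bases, 26 in CDC20 and 14 in KIF4A lie in an exon annotated by GENCODE 29, and 0 in MKI67 and KIF11. In MKI67, TTTGAA occurs 2 times as written, and the second copy runs into an ATTGG. The single TTCAAA of KIF11 lies 28 bases before the start, and the TTTGAA of KIF4A 34 bases before it. With both drugs MKI67 fell and KIF4A rose, whereas KIF11 and CDC20 did not pass. The part of these motifs in the changes was not tested.

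TNF-α, set against untreated cells, was followed by small falls in a minority of the genes. Of the 42, 1 was higher, 8 were lower and 33 did not pass, with a median log2 change of -0.02 (0.00 over all genes tested). Among all genes tested, 14.1% rose and 12.5% fell, beside 2.38% and 19% of the 42. The largest fall was in UBE2C, from 102, 102 and 103 CPM in untreated libraries to 78.0, 81.0 and 83.7 with TNF-α. Every TNF-α library lay below every untreated library, a fall by 0.34 ± 0.05 on the log2 scale (SE, edgeR adjusted p = 1.69e-07). It was the only one of the 42 that passed and changed at least 1.25-fold, beside 14.1% of all tested genes.

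Among the genes of mitotic entry, cyclin A2 (CCNA2), which partners CDK1 and CDK2, was at 193, 192 and 182 CPM untreated and 164, 167 and 171 with TNF-α. It fell by 0.17 ± 0.04 (adjusted p = 0.000213) with no overlap of the libraries. PLK1, the Polo-like kinase of mitotic entry and centrosome maturation, fell by 0.13 ± 0.04 (adjusted p = 0.00477). KIF20A, a kinesin of the central spindle, fell by 0.15 ± 0.04 (adjusted p = 0.00488), and TOP2A by 0.13 ± 0.03 (adjusted p = 0.000921). These 5 falls passed under every alternative tried. CDK1, the mitotic kinase itself, fell by 0.15 ± 0.04 and CDC20 by 0.12 ± 0.04, but CDK1 did not pass without untreated replicate 3 (-0.11, adjusted p = 0.0705), nor CDC20 without TNF-α replicate 1 (-0.11, adjusted p = 0.0754).

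The 1 gene that was higher, MKI67, encodes the Ki-67 protein that coats mitotic chromosomes and serves as a proliferation marker. It was at 783, 777 and 792 CPM untreated and 860.0, 851 and 833 with TNF-α, with no overlap, a log2 change of 0.11 ± 0.03 (adjusted p = 0.0092). The call was lost in 6 of 12 alternatives, among them those without untreated replicate 1 (0.10, adjusted p = 0.0587), untreated replicate 2 (0.10, adjusted p = 0.0504) and TNF-α replicate 1 (0.10, adjusted p = 0.064). AURKA (-0.08), BIRC5 (-0.10), FOXM1 (-0.01) and CCNB1 (-0.09) did not pass, and the highest value of all, 0.18 ± 0.09 in NUSAP1, a microtubule-binding protein, did not pass either (adjusted p = 0.125). Scaled by library totals alone, 0 were higher and 16 lower, beside 1983 and 2690 of the 16146 genes tested. With TMM scaling 2275 and 2017 of all genes tested were higher and lower, so that the background also moved towards falls.

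MCL, added to TNF-α, was followed by falls in both genes of the mitotic chromosome, 3 of 9 of mitotic entry, 2 of 5 of the checkpoint and 2 of 8 of the central spindle and cytokinesis. Among these, the calls of PLK1, TTK and ANLN were lost in 11, 10 and 8 of 12 alternatives. Against TNF-α alone, 2 of the 42 genes were higher, 13 lower and 27 did not pass (median log2 change -0.07, and -0.02 over all genes tested). The share of the 42 that was lower, 31%, stood beside 15.1% of all tested genes, and 10.9% of all were higher. No member that passed changed by 1.25-fold or more, whereas 12.9% of all tested genes did.

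MKI67 was at 697, 649 and 689 CPM with MCL, beside 860.0, 851 and 833 with TNF-α alone. All MCL libraries were lower, and the fall was 0.32 ± 0.03 (adjusted p = 2.39e-11), the largest of the 42. TOP2A, with 473, 474 and 452 CPM against 544, 557 and 526, fell by 0.22 ± 0.03 (adjusted p = 2.97e-07), again with no overlap. ECT2, the exchange factor that switches on RhoA for the cleavage furrow, was at 44.7, 45.4 and 40.2 CPM against 50.6, 58.0 and 50.5 and fell by 0.29 ± 0.06 (adjusted p = 0.000177). AURKA, the Aurora A kinase of the centrosome, was at 87.9, 89.4 and 90.7 CPM against 106, 108 and 109. Its groups lay well apart, a fall by 0.27 ± 0.04 (adjusted p = 5.67e-07).

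Smaller falls that passed under every alternative tried were those of KIF11, the motor that pushes the spindle poles apart (0.19 ± 0.05, adjusted p = 0.00116), BUB3, a checkpoint protein (0.18 ± 0.04, adjusted p = 0.000211), CCNA2 (0.17 ± 0.04, adjusted p = 0.000518) and CDC20 (0.14 ± 0.04, adjusted p = 0.00405). The KIF11 libraries overlapped, at 111, 126 and 113 CPM with MCL and 136, 138 and 125 with TNF-α alone. PLK1 passed with a fall by 0.10 ± 0.04 (adjusted p = 0.0392) but kept the call in only 1 of 12 alternatives, and its adjusted p then ran from 0.0527 to 0.292 in the others. Of the 13 falls, 8 passed under every alternative and 5 were lost in at least 1. TTK fell by 0.17 ± 0.06 and ANLN, a scaffold of the cleavage furrow, by 0.13 ± 0.05, but each leave-one-out of a TNF-α library ended both calls, with adjusted p from 0.071 (ANLN without TNF-α replicate 1) to 0.129 (TTK without the same library). They were also lost without MCL replicate 1 (-0.15 and -0.10) and MCL replicate 3 (-0.15 and -0.09).

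UBE2C moved the other way, at 97.7, 98.9 and 87.9 CPM with MCL beside 78.0, 81.0 and 83.7 with TNF-α alone. The groups did not overlap, and the rise was 0.23 ± 0.05 (adjusted p = 0.000384), which brought the mean to 94.8 ± 6.05 CPM, beside 102 ± 0.505 in untreated cells. HMMR, a spindle protein also known as the hyaluronan receptor RHAMM, rose by 0.14 ± 0.05 (adjusted p = 0.0244). It did not pass without TNF-α replicate 1 (0.13, adjusted p = 0.0689) or without MCL replicate 2 (0.11, adjusted p = 0.122). CDK1 (-0.09), CCNB1 (-0.02), FOXM1 (0.02) and BIRC5 (0.02) did not pass. FOXM1, the transcription factor of the programme, was at 123, 125 and 127 CPM with MCL and 124, 122 and 125 without, so that the groups overlapped.

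Ruxolitinib, added to TNF-α, raised part of the genes by small amounts. Of the 42, 12 were higher, 0 lower and 30 did not pass, and 35 of 42 log2 changes lay above 0 (median 0.10, beside -0.01 over all genes tested). The share higher, 28.6%, stood beside 5.15% of all tested genes, and 10.6% of all were lower. No member that passed changed 1.25-fold or more, beside 6.11% of all tested genes. Beside the 0 that fell in edgeR, 1 was lower at an unadjusted p under 0.05, DESeq2 called 0, and a fit with the replicate number as a term called 1, MKI67.

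The chromosomal passenger complex, which corrects wrong attachments and later directs the cleavage furrow, had 3 of its 4 genes higher. INCENP, its scaffold, was at 148, 145 and 140.5 CPM with ruxolitinib and 126, 130.1 and 128 with TNF-α alone. The libraries did not overlap, and it rose by 0.17 ± 0.04 (adjusted p = 0.00096). BIRC5, the survivin subunit, was at 125, 132 and 123 CPM against 115, 113 and 115 and rose by 0.14 ± 0.04 (adjusted p = 0.00917). The fourth, CDCA8 (borealin), was at -0.03 ± 0.04 (adjusted p = 0.731).

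Of the 5 checkpoint genes 3 were higher. BUB1, a kinase that marks centromeric chromatin, was at 218, 226 and 227 CPM against 196, 205 and 206 and rose by 0.15 ± 0.04 (adjusted p = 0.00187). BUB1B, which encodes the inhibitor BUBR1 of the anaphase-promoting complex, was at 151, 144 and 141 CPM against 131, 134 and 129, a rise by 0.15 ± 0.04 (adjusted p = 0.00313). In both genes every ruxolitinib library was above every TNF-α library. TTK, the kinase MPS1 that starts the checkpoint signal, rose by 0.23 ± 0.06 (adjusted p = 0.00524), but not without ruxolitinib replicate 1 (0.19, adjusted p = 0.0558). KIF20A rose by 0.16 ± 0.04 (adjusted p = 0.00341) and KIF2C, a kinesin that takes microtubules apart at the centromere, by 0.14 ± 0.04 (adjusted p = 0.00817).

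These 6 rises other than TTK passed under every alternative tried, and the other 6 were lost in at least 1. FOXM1 was at 138, 132 and 136 CPM against 124, 122 and 125, a rise by 0.13 ± 0.04 (adjusted p = 0.0156) that did not pass without TNF-α replicate 2 (0.13, adjusted p = 0.0633) or ruxolitinib replicate 1 (0.12, adjusted p = 0.0664). The highest value was that of NEK2, a kinase of centrosome separation, at 0.29 ± 0.10 (adjusted p = 0.0444). NEK2 did not pass when ruxolitinib replicate 2 was left out (0.21, adjusted p = 0.233), nor without TNF-α replicate 1 (0.26) or TNF-α replicate 3 (0.25), where the adjusted p was 0.165 and 0.184. CDK1 (0.11), PLK1 (0.10), CCNB1 (0.07), AURKA (0.06), CDC20 (0.03), TOP2A (0.02) and MKI67 (-0.09) did not pass. The lowest value was -0.09, in NUSAP1, which did not pass either.

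**Figure D2:**
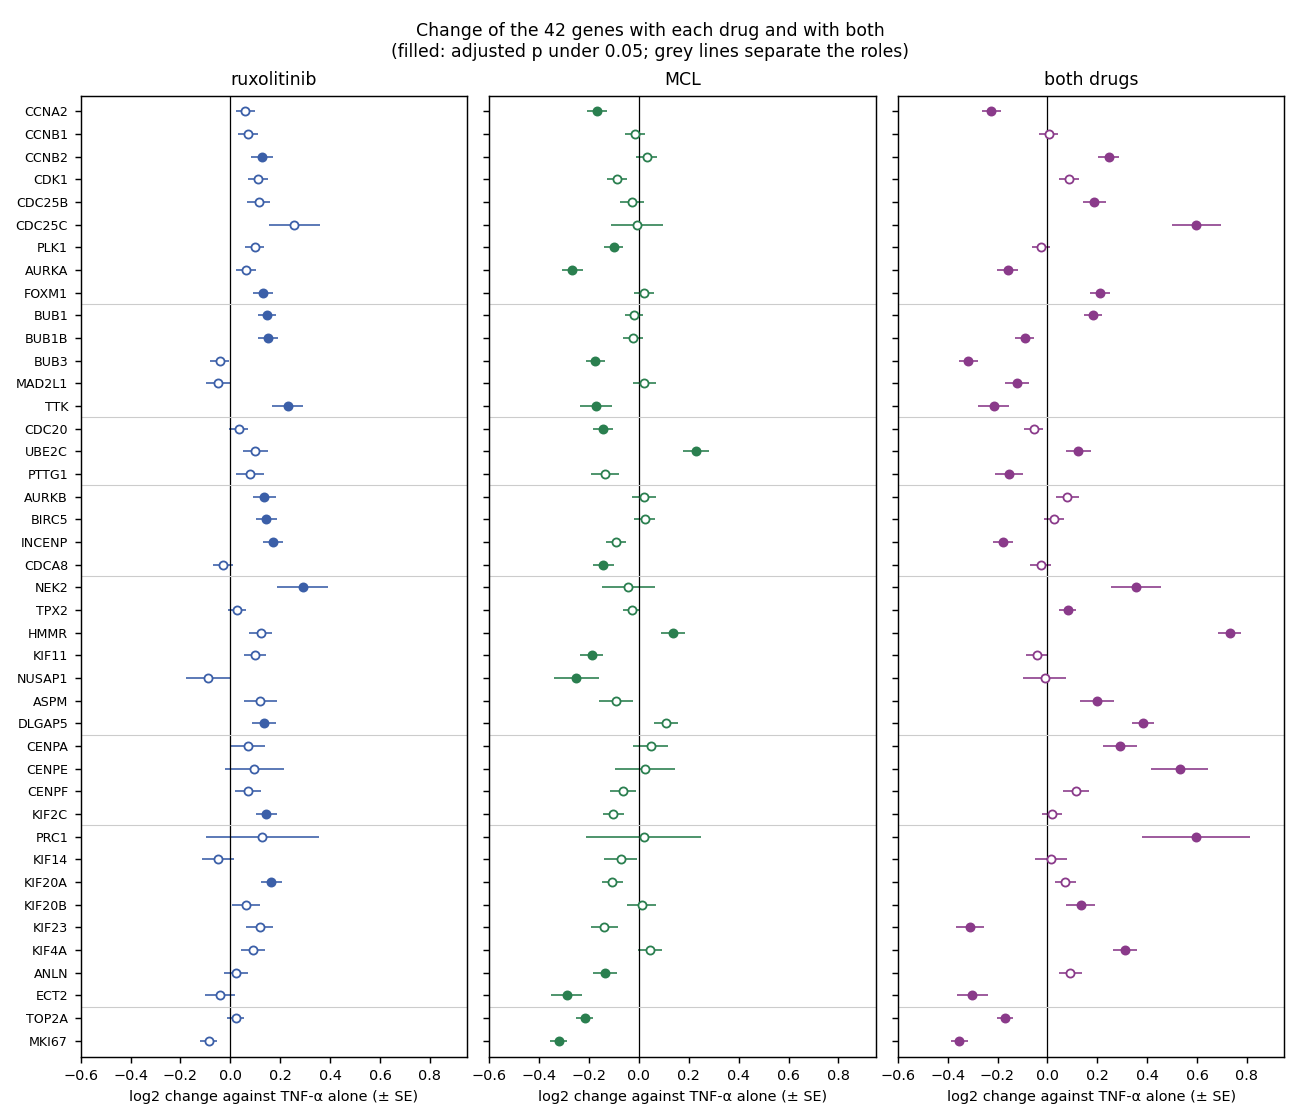
Log2 change of each of the 42 genes against TNF-α alone, with ruxolitinib, MCL and both drugs, as points with SE bars, filled where the adjusted p was under 0.05. The ruxolitinib values lie mostly above 0 (35 of 42), the MCL values mostly below 0 (29 of 42), and the values with both drugs spread from -0.35 to 0.73. All 3 panels share the TNF-α libraries.

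A direct contrast of the MCL libraries with the ruxolitinib libraries separated most of the genes. With MCL, 0 of the 42 were higher than with ruxolitinib, 26 were lower and 16 did not pass. The median was -0.16, beside -0.01 over all genes tested, and 39 of 42 values lay below 0. The share lower, 61.9%, stood beside 13.1% of all tested genes, and 14.3% of all were higher. At an unadjusted p under 0.05 edgeR had 1 higher, and DESeq2 called 0 higher. Of the 26, 17 passed under every alternative tried. UBE2C had the highest value, 0.13 ± 0.05 (adjusted p = 0.0502), and passed as higher with library totals (0.14), with no filter (0.14), with the replicate number as a term (0.13), without MCL replicate 3 (0.18) and without ruxolitinib replicate 2 (0.21).

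TTK was at 33.0, 34.9 and 33.0 CPM with MCL and 46.9, 43.7 and 42.6 with ruxolitinib. The groups lay apart by more than their spread, a difference of -0.40 ± 0.06 (adjusted p = 4.92e-07), the lowest of the 42. AURKA, at 87.9, 89.4 and 90.7 CPM against 111, 116 and 111, differed by -0.33 ± 0.04 (adjusted p = 1.69e-09), and KIF11 by -0.29 ± 0.05 (adjusted p = 1.06e-06). All 7 mitotic entry genes that passed, of 9, were lower with MCL, and they included CDK1 (-0.20 ± 0.04, adjusted p = 8.26e-05), which had passed against TNF-α alone with neither drug. Its MCL libraries were at 144, 146 and 135 CPM and its ruxolitinib libraries at 165, 159.6 and 163. PLK1 (-0.20), CDC20 (-0.18), TOP2A (-0.24), MKI67 (-0.23), INCENP (-0.27) and KIF20A (-0.27) were also lower under every alternative. The calls of CDC25C (-0.26), FOXM1 (-0.11) and CDC25B (-0.14) were lost in 9, 6 and 4 of 12 alternatives. For CDC25C these included leaving out any ruxolitinib library or MCL replicate 2 or 3 (-0.28 to -0.21). For FOXM1 they included leaving out MCL replicate 1 or 2 or ruxolitinib replicate 1 or 3 (-0.11 to -0.10), and for CDC25B MCL replicate 1 or 2 or ruxolitinib replicate 2 or 3 (-0.14 to -0.10). BIRC5, at -0.12 ± 0.04 (adjusted p = 0.0211), lost the call in 4, with no filter (-0.11) and without MCL replicate 1 (-0.12), MCL replicate 3 (-0.08) or ruxolitinib replicate 2 (-0.09). CCNB1 (-0.09 ± 0.04, adjusted p = 0.0884) did not pass.

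In genes with a promoter window, TTTGAA was present in 14 of the 21 that were lower with MCL than with ruxolitinib and in 6 of the 14 that did not pass. CCAAT was present in 18 of the 21 and 13 of the 14. For ruxolitinib against TNF-α alone, TTTGAA was in 4 of the 9 that rose and 16 of the 26 that did not pass. For MCL against TNF-α alone, it was in 8 of the 10 that fell, 1 of the 1 that rose and 11 of the 24 that did not pass.

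**Figure D3:**
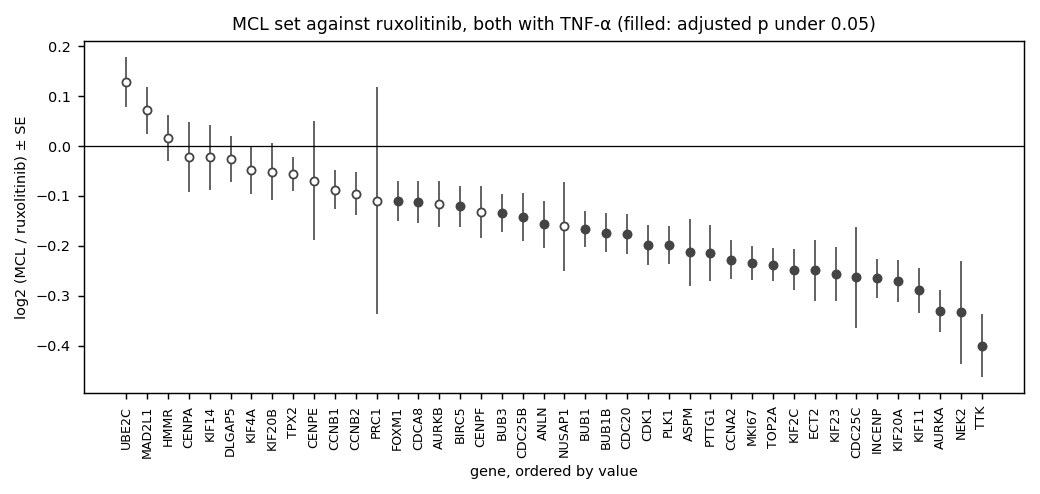
Log2 ratio of MCL to ruxolitinib, both with TNF-α, for the 42 genes in order of value, with SE bars, filled where the adjusted p was under 0.05. All 26 filled points lie below 0, down to -0.40 in TTK, and UBE2C, MAD2L1 and HMMR lie above 0 without passing.

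With both drugs the genes parted in 2 directions. Against TNF-α alone 16 of the 42 were higher, 12 lower and 14 did not pass, with a median log2 change of 0.05 (-0.03 over all genes tested). Among all genes tested, 25.5% rose and 29.3% fell, so that the share lower among the 42, 28.6%, was at the background and the share higher, 38.1%, somewhat above it. In size the changes were modest: 7 of the 42 passed with at least a 1.25-fold change, beside 37.8% of all tested genes. With library totals 23 of the 42 were higher and 7 lower (median 0.12), beside 5091 and 3900 of the 16146 genes tested (median 0.05), so that the comparison with the background differed between the scalings.

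HMMR had the largest rise. It was at 146, 156 and 151 CPM with both drugs, 90.0, 91.8 and 91.1 with TNF-α alone, 99.4, 104 and 96.4 with MCL and 95.4, 93.2 and 108 with ruxolitinib. The libraries with both drugs stood above all others, and the rise was 0.73 ± 0.05 (adjusted p = 1.22e-21). Among genes of the spindle, DLGAP5 (HURP), which stabilises microtubules near the chromosomes, was at 114, 119.8 and 114 CPM against 85.1, 92.0 and 89.6 and rose by 0.38 ± 0.05 (adjusted p = 9.34e-11). NEK2, at 21.7, 22.8 and 22.8 CPM against 16.6, 19.7 and 16.3, rose by 0.35 ± 0.10 (adjusted p = 0.00258). In both, all libraries with both drugs were above those with TNF-α alone.

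At the centromere, CENPE was at 124, 108 and 107 CPM with both drugs and 74.4, 82.9 and 76.6 with TNF-α alone, and rose by 0.53 ± 0.12 (adjusted p = 0.00232). CENPA, the histone variant that marks the centromere, rose by 0.29 ± 0.07 (adjusted p = 0.00027). KIF4A, a chromosome-bound kinesin that also sets the length of the central spindle, was at 95.1, 96.1 and 95.0 CPM against 76.5, 78.4 and 75.8. Its groups did not overlap and it rose by 0.31 ± 0.05 (adjusted p = 6.45e-08), with 1 TTTGAA and 1 ATTGG in the stretch printed above. PRC1 had a high value, 0.60 ± 0.22 (adjusted p = 0.0168), on low counts, and did not pass without TNF-α replicate 2 (0.46, adjusted p = 0.114) or without the first library with both drugs (0.52, adjusted p = 0.0716).

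Of the mitotic entry genes, 4 rose and 2 fell. CDC25C was at 18.2, 19.1 and 19.5 CPM with both drugs against 11.7, 14.1 and 11.8 and rose by 0.60 ± 0.10 (adjusted p = 4.52e-07). Its relative CDC25B rose by 0.19 ± 0.05 (adjusted p = 0.000517), cyclin B2 (CCNB2) by 0.24 ± 0.04 (adjusted p = 1.29e-06) and FOXM1 by 0.21 ± 0.04 (adjusted p = 6.03e-06). Cyclin A2 went the other way, at 140.4, 146 and 143 CPM against 164, 167 and 171, a fall by 0.23 ± 0.04 (adjusted p = 1.04e-06). AURKA fell by 0.16 ± 0.04 (adjusted p = 0.000733), a call lost with library totals (-0.08, adjusted p = 0.0766). Cyclin B1 (0.01), CDK1 (0.09) and PLK1 (-0.03) did not pass, and PLK1 was at 0.05 with library totals. The genes of cyclins A2 and B2 thus moved in opposite directions in the same libraries.

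**Figure D4:**
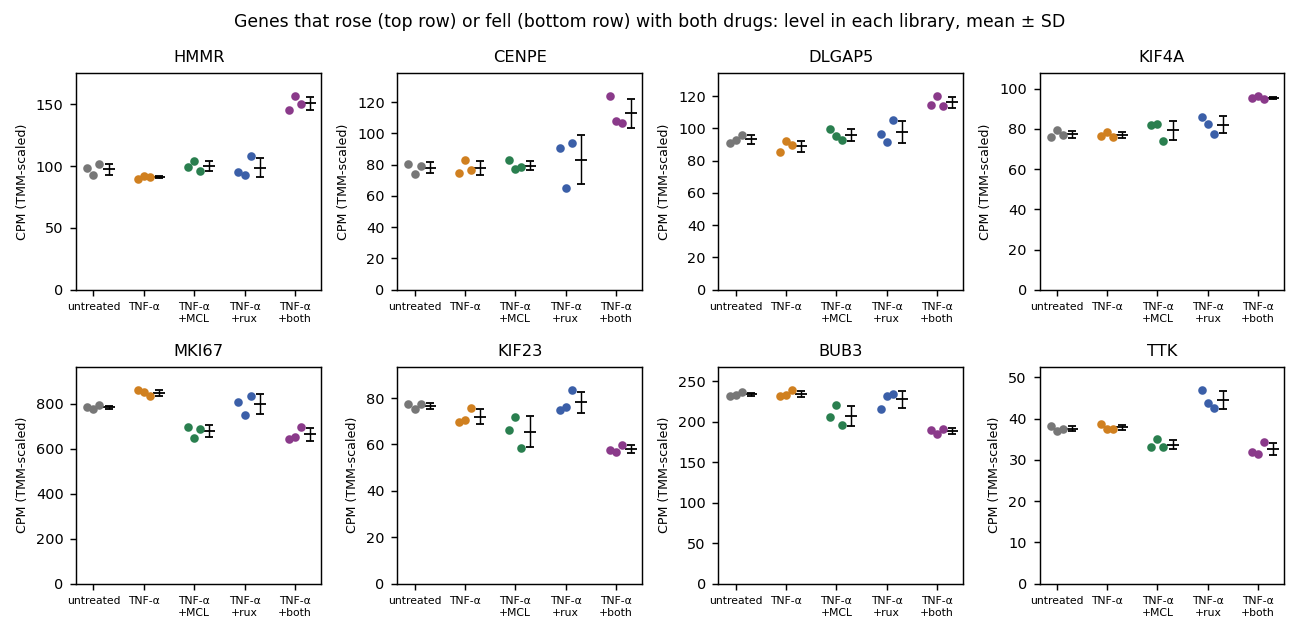
Level of 8 genes in each library as TMM-scaled CPM on axes that start at 0, with 3 libraries per group as points and mean ± SD as bars. In the top row (HMMR, CENPE, DLGAP5, KIF4A) the libraries with both drugs lie above those of all other groups, and in the bottom row (MKI67, KIF23, BUB3, TTK) they lie below all untreated and TNF-α libraries.

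Of the 5 checkpoint genes, 4 fell and 1 rose. BUB3 was at 189, 184 and 191 CPM with both drugs and 232, 232 and 239 with TNF-α alone, and fell by 0.32 ± 0.04 (adjusted p = 1.04e-10). BUB1, which binds BUB3 at the kinetochore, was at 228, 232 and 227 CPM against 196, 205 and 206 and rose by 0.18 ± 0.04 (adjusted p = 1.72e-05). Neither pair of groups overlapped. TTK fell by 0.22 ± 0.06 (adjusted p = 0.00297), though with library totals its adjusted p was 0.055 (-0.14). The falls of BUB1B and MAD2L1 were lost in 10 and 6 of 12 alternatives.

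Among the genes of division itself, KIF23, the motor of the centralspindlin complex, was at 57.6, 56.7 and 60.0 CPM with both drugs against 69.6, 70.7 and 75.8, a fall by 0.31 ± 0.06 (adjusted p = 2.52e-06). ECT2, which centralspindlin recruits to the central spindle, was at 43.7, 40.5 and 45.1 CPM against 50.6, 58.0 and 50.5 and fell by 0.30 ± 0.06 (adjusted p = 2.56e-05). INCENP, at 108, 116 and 115 CPM against 126, 130.1 and 128, fell by 0.18 ± 0.04 (adjusted p = 0.000125). In all 3 genes every library with both drugs lay below every library with TNF-α alone. MKI67, at 643, 650.3 and 698 CPM, fell by 0.35 ± 0.03 (adjusted p = 2.31e-13), the lowest value of the 42, and TOP2A by 0.17 ± 0.03 (adjusted p = 1.14e-05). CDC20 (-0.06) and BIRC5 (0.03) did not pass, and CDC20 was at 0.02 with library totals. TTTGAA was in the windows of 8 of the 13 matched genes that rose, 6 of the 9 that fell and 6 of the 13 that did not pass.

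Against ruxolitinib alone, the combination had 7 genes higher, 15 lower and 20 that did not pass (median -0.01, and -0.02 over all genes tested). Among all genes tested, 24.8% rose, 26.8% fell and 51.7% passed in either direction, beside 16.7% and 35.7% of the 42, and 33.4% of all passed with at least a 1.25-fold change, beside 6 of the 42. With library totals 13 of the 42 were higher and 11 lower, beside 4719 and 3689 of the 16146 genes tested. TTK had the lowest value, from 46.9, 43.7 and 42.6 CPM with ruxolitinib to 32.0, 31.5 and 34.3 with both drugs, a fall by 0.45 ± 0.06 (adjusted p = 9.6e-09). KIF23 fell by 0.43 ± 0.05 (adjusted p = 1.09e-09) and INCENP by 0.35 ± 0.04 (adjusted p = 2.39e-11), both without overlap. AURKA (-0.22), TOP2A (-0.19) and MKI67 (-0.27) were also lower in every alternative, as was PTTG1, the gene of securin, which keeps sister chromatids joined (-0.23 ± 0.06, adjusted p = 0.000366).

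HMMR was 0.61 ± 0.04 higher than with ruxolitinib alone (adjusted p = 2.8e-18), and CDC25C, DLGAP5, KIF4A and CENPA were higher by 0.34, 0.25, 0.22 and 0.22 in log2. These 5 passed under every alternative tried. PLK1 fell by 0.12 ± 0.04 (adjusted p = 0.00383) except with library totals (-0.07, adjusted p = 0.107). BIRC5 fell by 0.12 ± 0.04 (adjusted p = 0.0122), but not without ruxolitinib replicate 2 (-0.08, adjusted p = 0.146), without replicate 3 of both drugs (-0.10, adjusted p = 0.0776) or with library totals (-0.06, adjusted p = 0.175). CCNB1 (-0.07), CDK1 (-0.02), CDC20 (-0.09) and FOXM1 (0.08) did not pass, and CDK1 was at 0.03 with library totals.

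Against MCL alone, the combination had 23 of the 42 higher, 3 lower and 16 that did not pass (median 0.12, and -0.01 over all genes tested). The share higher, 54.8%, stood beside 19.6% of all tested genes, and the share lower, 7.14%, beside 22%. At least 1.25-fold changes that passed were 5 of the 42, beside 22.9% of all tested genes. All 7 spindle and centrosome genes and all 4 centromere and kinetochore genes were higher, though 5 of these 11 calls were lost when 1 library was left out: NUSAP1 without MCL replicate 1 (0.21), without MCL replicate 3 (0.19) or without the second library with both drugs (0.20), KIF11 without MCL replicate 1 (0.11), CENPF without MCL replicate 2 (0.16), CENPA without MCL replicate 3 (0.18) and KIF2C without MCL replicate 1 (0.09) or the first library with both drugs (0.11).

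CDC25C had the highest value, with 13.6, 12.3 and 11.5 CPM under MCL and 18.2, 19.1 and 19.5 with both drugs, a rise by 0.60 ± 0.10 (adjusted p = 6.12e-07). HMMR rose by 0.59 ± 0.04 (adjusted p = 1.8e-17) and ASPM by 0.29 ± 0.07 (adjusted p = 0.00203). CDK1, at 144, 146 and 135 CPM under MCL and 157, 161 and 160.1 with both drugs, rose by 0.17 ± 0.04 (adjusted p = 0.000286), and FOXM1 by 0.19 ± 0.04 (adjusted p = 5.7e-05). BUB3 fell by 0.14 ± 0.04 (adjusted p = 0.00187) in every alternative. The lowest value was that of KIF23, -0.17 ± 0.06 (adjusted p = 0.0099), which did not pass without MCL replicate 2 (-0.10, adjusted p = 0.167) or with library totals (-0.13, adjusted p = 0.0556). AURKA was 0.11 higher (adjusted p = 0.0331), a call lost in 5 of 12 alternatives: without MCL replicate 1 (0.10), MCL replicate 2 (0.11) or replicates 1 (0.10) or 3 (0.10) of both drugs, and with no filter (0.10). PLK1 (0.07), CDC20 (0.09), TOP2A (0.05), CCNB1 (0.02), BIRC5 (0.00) and MKI67 (-0.03) did not pass, and MKI67 was at 0.01 with library totals and BIRC5 at -0.0004387 with no filter.

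The non-additive effect is the log2 change with both drugs less the sum of the changes with each drug, all against TNF-α. Equally, it is what MCL did beside ruxolitinib less what it did alone. It passed in 9 of the 42, above 0 in 4 and below 0 in 5, beside 12.2% and 12.8% of all tested genes, so that the shares of 9.52% and 11.9% were at the background. The median was 0.06 (0.01 over all genes tested), and 2 of the 42 passed with at least a 1.25-fold effect, beside 15.1% of all.

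HMMR had the highest value, 0.47 ± 0.07 (adjusted p = 3.91e-08). MCL moved it by 0.14 ± 0.05 without ruxolitinib and by 0.61 ± 0.04 with it. The lowest value, -0.29 ± 0.08 (adjusted p = 0.00334), was that of KIF23, where MCL gave -0.14 ± 0.06 without ruxolitinib, which did not pass, and -0.43 ± 0.05 with it. INCENP, at -0.26 ± 0.06 (adjusted p = 0.000312), rose with ruxolitinib, did not pass with MCL (-0.09) and fell with both. BUB1B, at -0.22 ± 0.05 (adjusted p = 0.00151), was at 123, 123 and 123 CPM with both drugs, 129, 131 and 127 with MCL and 151, 144 and 141 with ruxolitinib. Its libraries with both drugs lay below those of TNF-α, of MCL and of ruxolitinib, and at the lowest untreated library.

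These 4 passed under every alternative tried. None of the panel of CCNB1 (-0.05), CDK1 (0.06), PLK1 (-0.02), AURKA (0.04), CDC20 (0.06), TOP2A (0.03), MKI67 (0.06), FOXM1 (0.06) and BIRC5 (-0.14) passed. In MKI67, MCL gave -0.32 ± 0.03 without ruxolitinib and -0.27 ± 0.03 with it, and in TOP2A -0.22 ± 0.03 and -0.19 ± 0.03.

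A list of 63 other genes of G2 and mitosis, all tested, was read in the same way. Against TNF-α alone, 4 rose and 17 fell with MCL (median -0.05), beside 10.9% and 15.1% of all tested genes. With ruxolitinib 21 rose and 0 fell (median 0.08), beside 5.15% and 10.6% of all. With both drugs 30 rose and 15 fell (median 0.10), beside 25.5% and 29.3% of all, so that the share that fell was near the background. MCL against ruxolitinib gave 1 higher and 37 lower (median -0.16), beside 14.3% and 13.1% of all. ESPL1, the gene of separase, which cuts the cohesin that holds sister chromatids, fell by 0.39 ± 0.04 with MCL and by 0.52 ± 0.04 with both drugs (adjusted p = 1.17e-11 and 3.77e-17). With both drugs, SKA1, a kinetochore protein, rose by 1.07 ± 0.07 (adjusted p = 8.76e-18), SMC4, a condensin subunit, by 0.58 ± 0.04 (adjusted p = 1.41e-19) and HMGB2, a chromatin protein, by 0.45 ± 0.03 (adjusted p = 4.82e-20).

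Of 15 transcription factors and cofactors of the programme, 7 rose and 3 fell with both drugs against TNF-α alone (median 0.03), beside 25.5% and 29.3% of all tested genes. LIN54, the subunit of MuvB that binds CHR, rose by 0.69 ± 0.07 (adjusted p = 5.64e-14) and LIN52, another MuvB subunit, by 0.85 ± 0.09 (adjusted p = 5.11e-13). E2F4, which joins MuvB as a repressor, fell by 0.47 ± 0.04 (adjusted p = 8.53e-15) and its relative E2F5 by 0.72 ± 0.09 (adjusted p = 5.4e-10). These 4 were named for their small p and do not stand for the list. RBL2 went from 70.8 ± 1.09 CPM with TNF-α to 83.5 ± 0.330 with both drugs. MYBL2, the gene of B-MYB, was at 174.8 ± 6.16 and 166.8 ± 3.99 CPM.

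Of 13 genes listed as brakes on mitotic entry, 12 were tested. With both drugs 4 rose and 8 fell (median -0.32), beside 25.5% and 29.3% of all tested genes. The list also holds FBXO5, an inhibitor of the anaphase-promoting complex that is not itself a brake on entry. FBXO5 was among the 8, at 63.2 ± 2.01 CPM with TNF-α and 51.6 ± 2.59 with both drugs. GADD45B and GADD45A, stress proteins that inhibit the CDK1 and cyclin B1 kinase, fell by 2.52 ± 0.21 (adjusted p = 1.88e-16) and 0.95 ± 0.06 (adjusted p = 5.95e-20). GADD45B was low, with as few as 20 counts in a library, and had risen by 1.63 ± 0.19 with TNF-α (adjusted p = 1.15e-10). It was at 2.258 ± 0.175 CPM in untreated cells, 6.999 ± 0.908 with TNF-α and 1.217 ± 0.155 with both drugs. BTG2, an antiproliferative gene, fell by 1.17 ± 0.06 (adjusted p = 2.27e-24) after it had risen by 1.13 ± 0.06 with TNF-α (adjusted p = 3.8e-23). PLK3 fell by 0.79 ± 0.09 (adjusted p = 1.34e-11). The 4 that rose were CDKN1A, CDKN1B, CHEK1 and CHEK2. CDKN1A went from 283.5 ± 6.36 CPM with TNF-α to 333 ± 1.04 with both drugs, and CHEK2 from 30.3 ± 2.44 to 42.8 ± 0.410. With MCL 1 rose and 7 fell (median -0.20), beside 10.9% and 15.1% of all. There BTG2 fell by 0.47 ± 0.06 (adjusted p = 5.16e-09).

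Of 14 subunits of the anaphase-promoting complex, 3 rose and 5 fell with both drugs (median -0.07), beside 25.5% and 29.3% of all tested genes, which is near the background. ANAPC7 and ANAPC2 fell by 0.38 ± 0.05 (adjusted p = 4.7e-09) and 0.35 ± 0.05 (adjusted p = 1.23e-07), and CDC23, which overlaps KIF20A, rose by 0.33 ± 0.04 (adjusted p = 3.57e-09).

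Of 25 genes of G1/S and DNA replication, the stage before, all tested, 6 rose and 14 fell with both drugs (median -0.12), beside 25.5% and 29.3% of all tested genes, so that the share that rose was near the background. The non-additive effect passed above 0 in 0 and below 0 in 13, beside 12.2% and 12.8% of all, and 3 values lay above 0 and 22 below (median -0.18). UHRF1, which carries DNA methylation through replication, fell by 0.99 ± 0.04 (adjusted p = 3.14e-30) and PCNA, the sliding clamp of replication, by 0.36 ± 0.03 (adjusted p = 7.29e-14), whereas E2F1, the activator of the G1/S genes, rose by 0.41 ± 0.05 (adjusted p = 7.38e-12). Against TNF-α alone, 5 of the 25 rose and 0 fell with ruxolitinib (median 0.07), beside 5.15% and 10.6% of all. With MCL 6 rose and 3 fell (median -0.01), beside 10.9% and 15.1%. MCL against ruxolitinib gave 1 higher and 10 lower (median -0.08), beside 14.3% and 13.1%. The difference between this list and the 42 genes was not tested.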

How the data were processed

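Libraries were made from total RNA, per the labels' protocols, which name no strand. The authors deposited 1 table of raw read counts per gene for the 15 libraries. The submitters' processing notes list, with no role given, the genome builds hg38 and mm10, the counter featureCounts (1.5.0-p3), the package DESeq2 (1.16.1) and the aligner HISAT2 (2.0.5). Untreated libraries were matched to the columns with a control heading, since every other column matched another group. Totals ranged from 15476399 to 18035604 counts, which sets the precision for low genes. No 2 libraries of a group agreed within sampling noise.

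The counts were analysed with edgeR 4.0.16 (limma 3.58.1, R 4.3.3): genes were filtered with filterByExpr at a minimum count of 10, scaled by TMM and fitted in 1 robust quasi-likelihood model over the 5 groups, which left 10 residual degrees of freedom. All p-values are two-sided edgeR quasi-likelihood p-values with Benjamini-Hochberg adjustment over the 16146 genes tested, and a gene counted as passed below an adjusted p of 0.05. The SE of a log2 change is its size divided by the root of the F statistic. Levels are TMM-scaled CPM, and the test was checked on simulated data.

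The 42 genes and the lists were chosen with earlier results of these data known. Any gene that passed could be named. A fixed panel (CCNB1, CDK1, PLK1, AURKA, CDC20, TOP2A, MKI67, FOXM1 and BIRC5) and the genes with the highest and lowest log2 change were named in every comparison, as were up to 4 genes of each other list with the smallest p. The brakes that rose with both drugs were named as well, and so were FBXO5, RBL2 and MYBL2, for their levels. The comparisons against TNF-α share its libraries.

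Alternatives were DESeq2 size factors, library totals, no filter, DESeq2 1.42.0, only the compared groups, the replicate number as a block and leaving out each library. The recomputation of the other lists, and the fit without overlapping genes, were added after seeing the data. Promoter windows came from RefSeq (GRCh38.p14).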

Additional observations from a re-analysis of the deposited data

Results flagged for a closer look

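The effect of MCL on 9 of the 42 genes differed between cells with and without ruxolitinib, by the test of the non-additive effect in edgeR (adjusted p under 0.05). Among all genes tested, 12.2% passed above 0 and 12.8% below, beside 9.52% and 11.9% of the 42, which is at the background. On the log2 scale the effect with ruxolitinib less that without was 0.47 in HMMR, 0.33 in NUSAP1, 0.20 in ANLN and 0.17 in KIF4A. It was -0.29 in KIF23, -0.28 in TTK, -0.26 in INCENP, -0.22 in BUB1B and -0.21 in UBE2C. The values of HMMR, KIF23, INCENP and BUB1B passed under every alternative tried. TTK did not pass without ruxolitinib replicate 1 (-0.24, adjusted p = 0.0582). The calls of UBE2C, ANLN, NUSAP1 and KIF4A were lost in 6, 4, 11 and 13 of 18 alternatives.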

How the results depend on the processing

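With library totals in place of TMM, TNF-α against untreated gave 0 higher, 16 lower and median -0.04976, and MCL against TNF-α gave median -0.034 and CCNB1 0.01706. In the same alternative, ruxolitinib against TNF-α gave median 0.1213, both against TNF-α gave 7 lower, median 0.1245, PLK1 0.05042 and CDC20 0.02089, both against ruxolitinib gave 13 higher, median 0.04241 and CDK1 0.0297. There both against MCL gave 1 lower, median 0.1606 and MKI67 0.0105, and MCL against ruxolitinib gave 1 higher. Over all 16146 genes tested, library totals gave 1983 higher and 2690 lower for TNF-α against untreated. For both against ruxolitinib they gave 4719 higher and 3689 lower. The all-gene counts were 5091 higher and 3900 lower for both against TNF-α and 3764 and 2976 for both against MCL. They were 2477 and 1983 for MCL against ruxolitinib. With no filter on low counts, TNF-α against untreated gave 0 higher, 13 lower and median -0.04203, and MCL against TNF-α gave 8 lower, median -0.04362 and CCNB1 0.007382. Of the 33896 genes in that fit, 1985 were higher and 2266 lower with TNF-α, and 1950 and 1991 with MCL. In the same alternative, both against MCL gave BIRC5 -0.0004387, MCL against ruxolitinib gave 1 higher (2256 over all genes) and the non-additive effect gave 2 higher (1640 over all genes). With DESeq2 size factors in edgeR, TNF-α against untreated gave 13 lower, and both against TNF-α gave median 0.07133. Over all 16146 genes, TNF-α then gave 2107 higher and 2327 lower, so that the background also moved towards falls. With DESeq2, TNF-α against untreated gave 0 higher, beside 1946 of all 16146 genes, and both against TNF-α gave median 0.07133. With only the compared groups in the fit, TNF-α against untreated gave 2 higher, beside 2440 of all 15022 genes. The non-additive effect gave 2 higher, beside 1888 of all 15910. Without the 9 genes that overlap another tested gene, an alternative chosen after seeing the data, TNF-α against untreated gave 5 lower and median -0.03994, and both against TNF-α gave median 0.01539. In the same alternative, both against ruxolitinib gave 4 higher.

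Leaving out 1 library at a time gave these ranges: for TNF-α against untreated higher 0 to 1, FOXM1 -0.04296 to 0.005619, median -0.06007 to -0.01325, and for MCL against TNF-α higher 1 to 3, CCNB1 -0.04382 to 0.01096, BIRC5 -0.007036 to 0.06421. Further ranges were, for both against TNF-α CCNB1 -0.02334 to 0.03258, and for the non-additive effect higher 1 to 4, lower 4 to 8, TOP2A -0.01181 to 0.04479, and for both against MCL lower 1 to 4, BIRC5 -0.03535 to 0.03608. The last were, for MCL against ruxolitinib higher 0 to 1, and for ruxolitinib against TNF-α median 0.08022 to 0.1345, lower 0 to 1. Of the calls of single genes among the 42, 1590 of 1818 recomputed values stayed past the threshold with the same direction, 228 did not pass and 0 changed sign. For the other lists 898 of 1020 recomputed counts stayed within 1.5 times. The cause of these changes was not tested. Depth limits PRC1 most, with as few as 31 counts in a library.

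The replicate numbers shared across groups did not pair the libraries: of 30 same-numbered pairs, 0 had a correlation of deviations over 0.1 (range -0.0483 to 0.0483), and in 12 of the 30 the same number gave the highest correlation. With the replicate number as a block, ruxolitinib against TNF-α gave 1 lower, and MCL against ruxolitinib gave 1 higher. Of all 16146 genes, 1723 were lower and 2316 higher in these fits.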
